A study of Danio rerio with 6 samples.

Results

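Pairs of deletions that lay close together on the same copy of a GFP reporter, referred to here as close pairs, were described in 6 zebrafish. A close pair is a scar with exactly 2 deletions, no insertion and a block of at most 10 bp kept between the deletions. Scars were read from counts of sequencing reads, and a scar was kept in a fish when at least 10 of its reads were counted in a library, which is a barcode with at least 1000 reads. By this rule 728 different close pairs were kept, of 4273 different scars of any type. Fish R1 held 300 of them, fish R2 75, fish R3 85, fish P1 211, fish P2 73 and fish P3 111. The pairs were thus chosen by the shape of the scar and by its read count, and neither is a result. At the read limit, 55 close pairs had a highest count of 10 reads in a fish and 65 had one of 9, counted per fish. At the limit of the block, 68 pairs kept 10 bp between the deletions and 58 kept 11 bp.

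The fish carried a tandem array of H2A-GFP transgenes, with GFP fused to a histone. They were injected as zygotes with a guide RNA against GFP together with either Cas9 RNA (fish R1, R2 and R3) or Cas9 protein (fish P1, P2 and P3), and were dissected at an age of 1 year. There was no uninjected fish among the samples, so no background of pairs without Cas9 could be given. Each fish is an injected founder whose tissues are a mosaic of scars, and only the fish is a replicate, since the libraries of a fish share its clones. The body structure behind a barcode was not used here, and several barcodes may come from the same structure. The 6 fish gave 130 libraries, 58 from Cas9 RNA fish with 13027 to 3198706 reads and 72 from Cas9 protein fish with 2802 to 2839277 reads. A count of 3 reads corresponded to between 0.000137% and 0.163% of the scarred reads of a library. Because molecular identifiers were not used, reads amplified by PCR are not independent molecules, and every interval given here covers counting error only.

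Cas9 cuts both strands of DNA at a site set by its guide, and the cell often rejoins the ends with loss or gain of a few bases. The altered copy is passed on to all daughter cells, which is why such scars can serve as clone labels. A tandem array offers many copies of the target in every cell, and a copy can be cut again as long as its target site is intact. Injected Cas9 RNA must be translated before it can cut, whereas injected protein is ready at once. When the deleted bases of a coding sequence sum to a multiple of 3, the reading frame downstream is kept.

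The most abundant close pair of each fish is shown as it stands in the deposited tables, where M counts the bases present and D the bases deleted along the 720 bp of the GFP reference, read from its start. They are given because each held a large part of the close pair reads of its fish, from 46.6% (R1) to 84.3% (R2).
Fish R1: 522M2D3M5D188M
Fish R2: 536M4D2M2D176M
Fish R3: 515M4D9M10D182M
Fish P1: 536M3D7M2D172M
Fish P2: 543M23D4M1D149M
Fish P3: 526M11D9M2D172M

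In fish R1, for example, bases 523 to 524 and 528 to 532 were lost and the 3 bases between them were kept. Positions are those of the GFP reference, counted from 1, and not of the zebrafish genome. The reference bases themselves were not among the files used here, so no sequence is shown. Changes of single bases are not recorded in this notation, and the aligner chooses where a gap is placed. How often another choice of gaps would have moved a scar into or out of the close pairs was not tested.

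Close pairs held a larger part of the scarred reads in every Cas9 RNA fish than in any Cas9 protein fish. Averaged over libraries, their share of the scarred reads was 12.5% (R1), 14.5% (R2) and 12.1% (R3) after Cas9 RNA. After Cas9 protein these shares were 1.47% (P1), 0.590% (P2) and 7.04% (P3). The mean was 13.03% ± 1.32 (SD, n = 3) after injection of Cas9 RNA and 3.03% ± 3.50 (SD, n = 3) after that of Cas9 protein. The fish did not overlap, which gives p = 0.10 in an exact two-sided permutation test, the smallest value that 3 fish against 3 allow, or 0.20 after Benjamini-Hochberg adjustment over the 6 comparisons of injections. The comparison therefore cannot pass 0.05 at this number of fish. In percentage points, much of the difference lay in few scars. Without the leading close pair of each fish the shares were 7.12%, 2.39% and 6.34% for R1, R2 and R3 and 0.963%, 0.392% and 1.80% for P1, P2 and P3. Without the 3 leading pairs of each fish they were 3.70%, 1.51% and 2.78% against 0.567%, 0.239% and 0.683%, still without overlap, and the difference of means fell from 9.99 to 2.17 percentage points. The means fell after both injections, from 13.03% to 2.66% after Cas9 RNA and from 3.03% to 0.496% after Cas9 protein. Among pairs kept in 1 fish only, the order of the fish was lost. These pairs held 10.9%, 0.710% and 1.93% for R1, R2 and R3 and 0.722%, 0.166% and 6.63% for P1, P2 and P3, a difference of means of 2.004 percentage points (two-sided exact permutation, p = 0.60, adjusted 0.72). This limit left out the leading pairs of R2, R3, P1 and P2, which reached 10 reads in a library of another fish. The leading pairs of R1 and P3 stayed in. The order also depended on counting scarred reads only. Of all reads of a fish, scarred or not, close pairs held 12.6%, 2.51% and 7.55% for R1, R2 and R3. They held 0.906%, 0.431% and 5.53% for P1, P2 and P3, so that R2 lay below P3. In fish R2, 1221515 of 8768335 reads were scarred, and in fish P3 5218309 of 7631219.

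Within a fish, libraries varied widely. In fish R1 the share ran from 3.91% in barcode 16 through a median of 10.7% to 40.4% in barcode 25. It ran from 3.68% to 27.4% with a median of 13.5% in fish R2, and from 3.39% to 23.3% with a median of 11.6% in fish R3. All 58 libraries of Cas9 RNA fish thus lay at or above 3.39%. In fish P1 the share ran from 0.140% to 6.89% with a median of 0.563%, and in fish P2 from 0.0929% to 4.47% with a median of 0.194%. Only 3 of 26 libraries of P1 and 1 of 23 libraries of P2 reached the lowest library of Cas9 RNA fish. Fish P3 stood apart from the other Cas9 protein fish, with libraries from 1.36% to 19.5%, a median of 5.89% and 17 of 23 libraries at or above that level. Libraries of fish P1 and P2 also differed more from each other relative to their mean. The coefficient of variation over libraries was 56.4% ± 3.21 (SD, n = 3) after injection of Cas9 RNA and 120.5% ± 46.5 (SD, n = 3) after that of Cas9 protein (two-sided exact permutation, p = 0.10, adjusted 0.20), with 69.2% in fish P3. Without the leading pair of each fish the difference of these means fell from -64.1 to -34.8 percentage points (two-sided exact permutation, p = 0.30, adjusted 0.45).

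**Figure D1:**
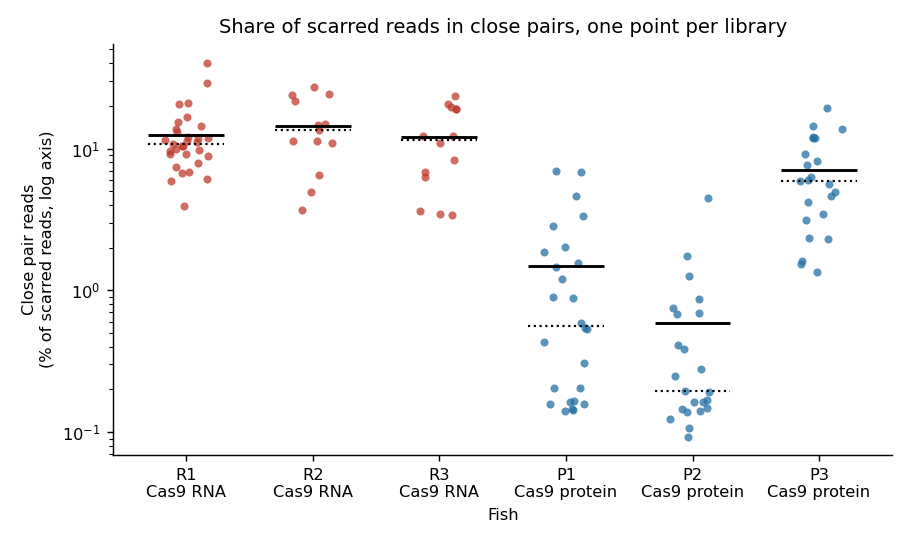
Share of scarred reads held by close pairs in each library (y axis, percent, log scale) for the 6 fish (x axis), with Cas9 RNA fish in red and Cas9 protein fish in blue. Each point is a library, the solid line is the mean and the dotted line the median of a fish, and the libraries of fish P1 and P2 sit mostly below 1% while all those of R1, R2 and R3 sit at or above 3.39%.

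When each scar was counted once, close pairs were a larger part of all kept scars in every Cas9 RNA fish than in any Cas9 protein fish. They were 18.2%, 15.1% and 14.3% of the kept scars for R1, R2 and R3, and 13.02%, 9.36% and 11.4% for P1, P2 and P3. The means were 15.9% ± 2.05 (SD, n = 3) and 11.3% ± 1.84 (SD, n = 3), again without overlap (two-sided exact permutation, p = 0.10, adjusted 0.20). The fish overlapped when only scars in at least 2 libraries were counted, with 9.44% in R2 below 10.2% in P1 and 10.5% in P3 (two-sided exact permutation, p = 0.30, adjusted 0.45). They also overlapped when only close pairs kept in 1 fish were counted, still as a percent of all kept scars, shared or not. There 8.75% in R3 lay below 9.88% in P1 (two-sided exact permutation, p = 0.20, adjusted 0.60). Set beside them, pairs of deletions more than 10 bp apart held 2.15%, 1.14% and 0.524% of the scarred reads for R1, R2 and R3 and 1.75%, 1.49% and 5.03% for P1, P2 and P3. Close pairs thus exceeded these wider pairs in the 3 Cas9 RNA fish, lay below them in fish P1 and P2 and above them in fish P3. Single deletions held 45.1% (P2) to 83.2% (P1) of the scarred reads.

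A few scars carried most of the close pair reads. The leading pair alone held 46.6% (R1), 84.3% (R2), 49.5% (R3), 47.6% (P1), 56.5% (P2) and 82.4% (P3) of the close pair reads. The number of pairs needed to reach 90% of these reads was 2 in fish P3, 4 in fish R2, 6 in fish R1 and in fish R3, 13 in fish P2 and 15 in fish P1. Most of the others stayed at trace levels. From 61.3% (R2) to 92.4% (P1) of the close pairs of a fish never reached 0.1% of the scarred reads of any library. At least 1% of the scarred reads of a library was reached by 12, 8 and 9 close pairs for R1, R2 and R3, and by 3, 2 and 4 for P1, P2 and P3.

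The leading pair of fish R1, which deletes bases 523 to 524 and 528 to 532, was found in all 31 libraries. Its share of the scarred reads was 1.65% in barcode 19, 4.32% in the median library and 19.8% in barcode 4 (95% Wilson interval 19.7 to 19.9%), with a mean of 5.37% ± 4.35 (SD over libraries). No library of the fish lacked it, while the highest count in any library of another fish was 1 read. A second pair of fish R1, with bases 534 to 540 and base 546 deleted, ranged from 0.596% to 18.2% with a median of 1.44%, and was highest in barcode 25. These pairs shared 4 of their 5 highest libraries. The third, with bases 514 to 524 and 527 to 539 deleted and only 2 bases kept in between, ranged from 0.442% to 2.92%, and shared 2 of its 5 highest libraries with the leading pair. All 3 were kept in fish R1 only, and each was carried by all 31 libraries.

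In fish R2 the deletions of bases 537 to 540 and 543 to 544, a loss of 6 bp, formed the leading pair and were found in every library. Its share was 2.35% in barcode 14, 11.03% in the median library and 24.4% in barcode 8 (95% Wilson interval 24.1 to 24.7%), with a mean of 12.1% ± 7.09 (SD over 13 libraries). It was the close pair with the highest mean in any fish, although fish R2 had the fewest scarred reads, 1221515 in all. Unlike the leading pair of fish R1 it recurred elsewhere. It was kept in 20 libraries of fish R1 with a mean of 0.309%, in 6 of fish R3 with 0.0644% and in 8 of fish P1 with 0.00146%. The next pairs of fish R2 were confined to few libraries. Deletions of base 536 and of bases 542 to 544 reached 8.96% in barcode 12 and at most 0.122% in any other library of that fish. The pair kept in fish R2 only with the widest spread, with bases 536 to 538 and base 545 deleted, was carried by 6 of 13 libraries at a mean of 0.0273%.

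Fish R3 had 3 leading pairs that were present throughout. Deletions of bases 516 to 519 and 529 to 538 ranged from 0.632% through a median of 4.26% to 16.7%, with a mean of 5.72% ± 4.95 (SD over 14 libraries). Deletions of bases 536 to 541 and of base 547 ranged from 0.359% to 5.33% with a median of 2.63%, and deletions of bases 527 to 528 and 533 to 536 from 0.113% to 1.92% with a median of 0.809%. All 3 were carried by all 14 libraries, were lowest in barcode 10 and had the same 5 barcodes at the top. The last of them was kept in fish R3 only and had 0 reads in the libraries of any other fish.

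In fish P1 and P2, by contrast, the leading pair was high in few libraries and present at a lower level in the rest. Deletions of bases 537 to 539 and 547 to 548 reached 6.17% in barcode 7 of fish P1 and 3.66% in the next library, and were at or above 0.5% in 6 of 26 libraries. In the other 20 they lay between 0.0317% and 0.0642%, with a median of 0.0454%. Of the 6, barcode 16 stood at 0.651% on only 12 reads of the pair among 1842 scarred reads. In fish P2, deletions of bases 544 to 566 and of base 571 made up 4.16% in barcode 1 and between 0.00789% and 0.0661% in the other 22 libraries. This pair lost 24 bp, and 20 of 23 libraries counted as carrying it. A count of libraries with 10 reads therefore includes such low levels. Whether reads passed between libraries was not tested.

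The other leading pairs of these fish were also high in few libraries. In fish P1, deletions of bases 541 to 542 and 545 to 548, which were kept in that fish only, were counted in 24 of 26 libraries but were at or above 0.5% in 4 and ran from 0 to 0.441% in the other 22. Deletions of bases 530 to 533 and 537 to 544 made up 3.91% in barcode 3 and at most 0.103% elsewhere in fish P1. In fish P2, deletions of base 534 and of bases 545 to 547 reached 1.28% in barcode 5, and deletions of bases 529 to 533 and of base 541 reached 0.750% in barcode 15. Each of them had 1 library at or above 0.5%, and the other 22 ran from 0 to 0.161% and from 0 to 0.364%.

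In fish P3 the leading pair was high in many libraries, as in Cas9 RNA fish. Deletions of bases 527 to 537 and 547 to 548, with the 9 bases between them kept, were found in all 23 libraries at 0.823% in barcode 20, 4.04% in the median library and 19.2% in barcode 12 (95% Wilson interval 19.1 to 19.3%), with a mean of 5.24% ± 4.79 (SD over libraries). The highest count in a library of another fish was 5 reads. Deletions of bases 533 to 534 and 539 to 547 were high in other libraries, from 0.0326% to 5.66% in barcode 17, and shared 1 of their 5 highest libraries with the leading pair. Deletions of bases 529 to 530 and 540 to 541 reached 1.83% in barcode 23 and lay at or above 0.5% in 5 libraries.

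**Figure D2:**
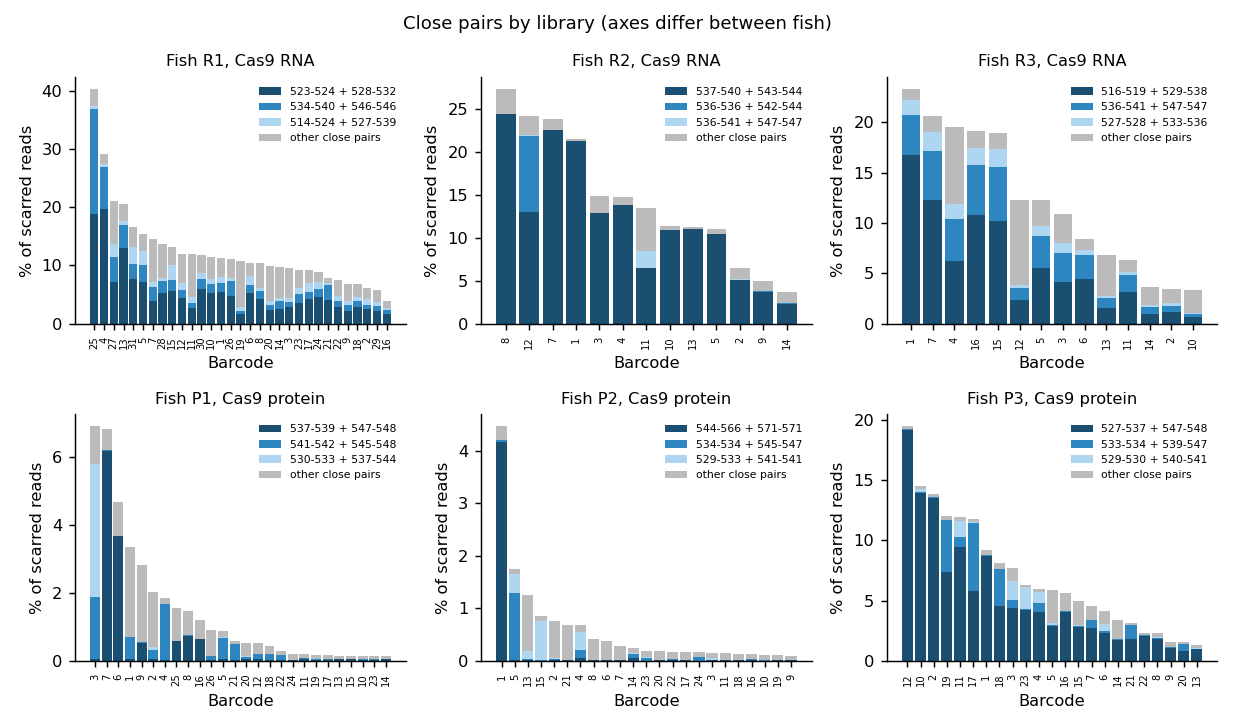
Share of scarred reads (y axis, percent) held by the 3 leading close pairs of each fish (blue shades, named by their deleted positions) and by all other close pairs (grey), with libraries ordered by their total along the x axis. The y axes differ between fish, and in fish P1 and P2 a few libraries stand above many at trace levels while the leading pair is at or above 0.5% in every library of fish R1, R2, R3 and P3.

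Deletions of bases 536 to 541 and of base 547 were the only close pair kept in all 6 fish. With the scarred reads of a fish pooled over its libraries, this pair held 1.22%, 0.309% and 3.03% of them for R1, R2 and R3. It held 0.00488%, 0.00205% and 0.0358% for P1, P2 and P3. Every Cas9 RNA fish lay above every Cas9 protein fish. The same held for 21 of the 121 scars of any type kept in all 6 fish, or 17.4%, and the reverse for 3 of them, or 2.48%. With 1 close pair among the scars tested, its order between injections is a description of that pair. All 31 libraries of R1 and all 14 of R3 carried it, but only 4 of 13 (R2), 4 of 26 (P1), 1 of 23 (P2) and 6 of 23 (P3) elsewhere. In fish R2 it was concentrated in barcode 11, with 2.03% against at most 0.144% in any other library. The order of the fish rested on that library, since without it the share in fish R2 was 0.0114%, below that of fish P3.

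Most close pairs reached the read limit in a single fish, and some of these had fewer than 10 reads in libraries of another. The same percent over scars of any type is not given here. Of the 728, 638 or 87.6% were kept in 1 fish, 67 in 2, 12 in 3, 9 in 4, 1 in 5 and 1 in 6 fish. Among the 90 shared pairs, 17 were shared between Cas9 RNA fish only, 17 between Cas9 protein fish only and 56 between fish of both injections. The pair found in 5 fish, which was not kept in fish R2, joined a deletion of bases 532 to 549 to the loss of base 560 and was at most 0.0146% of the scarred reads on average, in fish P3. Each of its deletions was also kept alone in all 6 fish. The leading pair of fish R3 was among those kept in 4 fish. It was kept in 4 libraries of fish R1, 1 of fish P1 and 3 of fish P3, where its means were 0.00865%, 0.000419% and 0.00189%. Shared pairs had a median loss of 7 bp and pairs of 1 fish one of 10 bp, and 52.2% of the shared pairs against 40.6% of the others included a deletion of 1 bp.

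The part of the close pair reads that lay in shared pairs differed widely between fish. Shared pairs held 95.8% of the close pair reads in fish R2, 86.6% in fish P2, 82.97% in fish R3 and 63.1% in fish P1. In fish R1 and P3, whose leading pairs were their own, they held 8.32% and 3.30%. These values depend on the read limit. The leading pair of fish P2, with 56.5% of its close pair reads, counted as shared through 11 reads in a library of fish P1. The leading pair of fish P3, with at most 5 reads in a library of another fish, did not. Of the 18 leading pairs, which are counted per fish, 9 were kept in 1 fish only. Deletions of bases 536 to 541 and of base 547 are counted in both fish R2 and fish R3.

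In each of the 6 fish, a smaller percent of the close pairs than of the wider pairs or of the single deletions was shared with another fish. Scars of other types were not compared. For R1, R2 and R3, 18%, 29.3% and 38.8% of the close pairs were kept in at least 1 other fish, and for P1, P2 and P3 24.2%, 42.5% and 23.4%. For wider pairs this share ran from 33.9% (R1) to 70.8% (R2), and for single deletions from 78.6% (R1) to 94.4% (P2). Close pairs were lower in 6 of 6 fish, by a mean of -18.9 percentage points against wider pairs and -59.1 against single deletions. Each gives p = 0.0312 in an exact two-sided permutation test that flips the sign of the 6 differences, the smallest value possible, and 0.0625 after Benjamini-Hochberg adjustment over the 8 comparisons of scar types, so that neither passed 0.05 after adjustment. Fish share scars, and their differences are therefore not fully independent. Against wider pairs, the direction turned at a limit of 0.1% of the reads of a library, where the mean difference was 3.62, and with all libraries drawn down to 10000 reads, where it was 0.377. Few close pairs of a fish remained there, 8 (P2) to 47 (R1) at the limit and 10 (R2 and P2) to 48 (R1) when drawn down. For most wider pairs kept in all 6 fish, both deletions were also kept alone in all 6 fish. In these the downstream deletion was a loss of 1 bp, such as that of base 560. How these pairs bear on the difference was not tested. The median close pair had between 36 and 133 reads in a fish, the median wider pair between 35 and 64 and the median single deletion between 185 and 494.

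In each of the 6 fish, the mean close pair was also carried by fewer libraries than the mean single deletion. A close pair was found on average in 12.9%, 13.7% and 23.9% of the libraries of R1, R2 and R3 and in 10.8%, 13.3% and 15.3% of those of P1, P2 and P3. Single deletions were found in 31.2% to 41.1%, a mean difference of -19.9 percentage points with the same sign in 6 of 6 fish (two-sided exact permutation, p = 0.0312, adjusted 0.0625). The difference was -9.55 at a limit of 0.1% of the reads of a library and -10.1 with libraries drawn down to 10000 reads, and it turned to 1.22 among scars kept in 1 fish only (two-sided exact permutation, p = 0.594, adjusted 0.875). Wider pairs were found in 10.6% to 19.4%, and close pairs differed from them by 0.324 percentage points on average (p = 0.781 in the same exact test, adjusted 0.781), with 4 of 6 fish higher. This direction turned without fish R1 (-0.0585) or fish R3 (-0.513). Between injections the mean was 16.9% ± 6.16 (SD, n = 3) after injection of Cas9 RNA and 13.1% ± 2.26 (SD, n = 3) after that of Cas9 protein, which differed by less than the SD after Cas9 RNA (two-sided exact permutation, p = 0.50, adjusted 0.60), and the difference fell from 3.75 to 0.202 percentage points without fish R3. From 41.2% (R3) to 70.7% (R2) of the close pairs were seen in 1 library of their fish, and 6, 1 and 4 in all libraries of R1, R2 and R3, against 1, 0 and 2 for P1, P2 and P3. The median library carried 27, 8 and 19 close pairs for R1, R2 and R3 and 19, 8 and 15 for P1, P2 and P3.

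**Figure D3:**
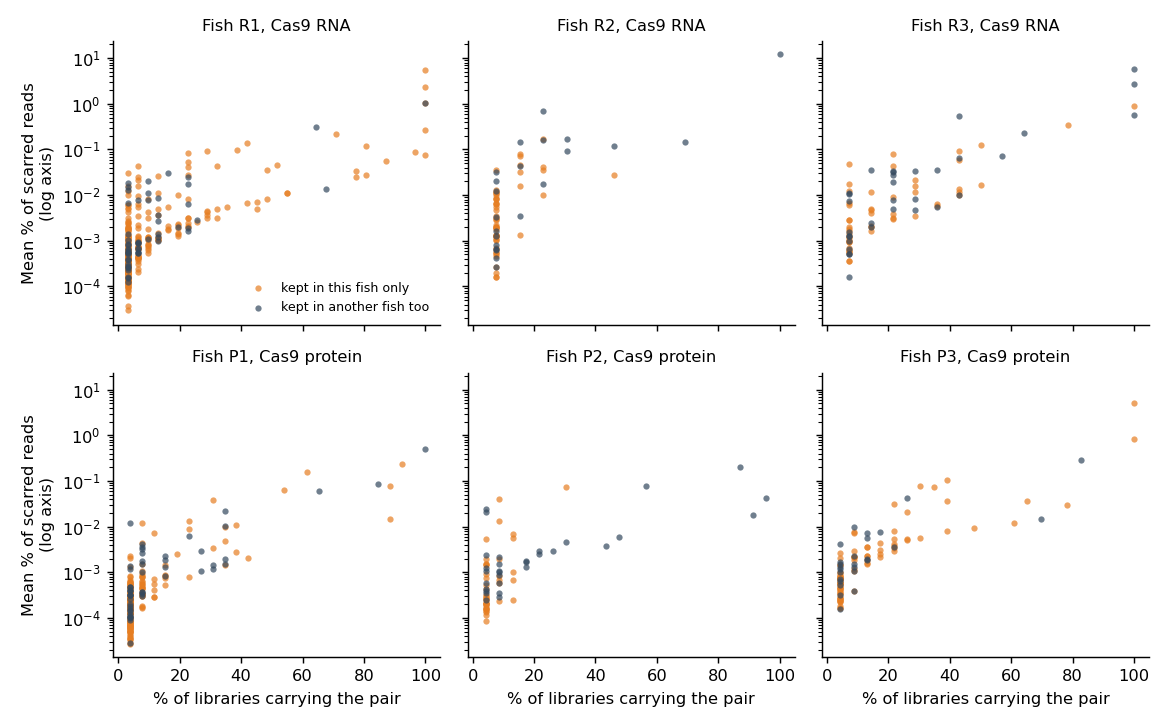
Mean share of scarred reads of each close pair (y axis, percent, log scale) against the percent of the libraries of the fish that carry it with at least 10 reads (x axis), for pairs kept in that fish only (orange) and in another fish too (dark). Pairs are densest at the lower left, at few libraries and low shares, and the leading pairs of fish R1, R2, R3, P1 and P3 lie at 100%.

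All 18 leading pairs lay between bases 514 and 571 of the reference. Over the 728 close pairs, the upstream deletion began at a median position of 530 (middle range from 522 to 535), and the downstream deletion ended at a median of 545 (middle range from 541 to 547). The first base lost by any of them was 462 and the last was 573. Together with the kept block a pair covered a median of 15 bp, at most 77 bp. In reads with a single deletion, the base lost most often was 542 in fish R1, R3 and P1, 544 in fish R2 and P2 and 545 in fish P3. Close pairs were placed differently around this base in different fish. It lay in the downstream deletion for 91.3% of the close pair reads of fish R2, in the upstream deletion for 57.9% of those of fish P2, and in the kept block for 83.4% of those of P3 and for 58.8% of the close pair reads of P1. In fish R1 and R3, 57.98% and 67.7% of the close pair reads had both deletions upstream of it, so that these copies kept the base that single deletions most often removed. Counted by scar, pairs that lay wholly upstream of it were 104 of 300 in fish R1 and 23 of 85 in fish R3, and pairs wholly downstream were at most 3 in any fish.

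**Figure D4:**
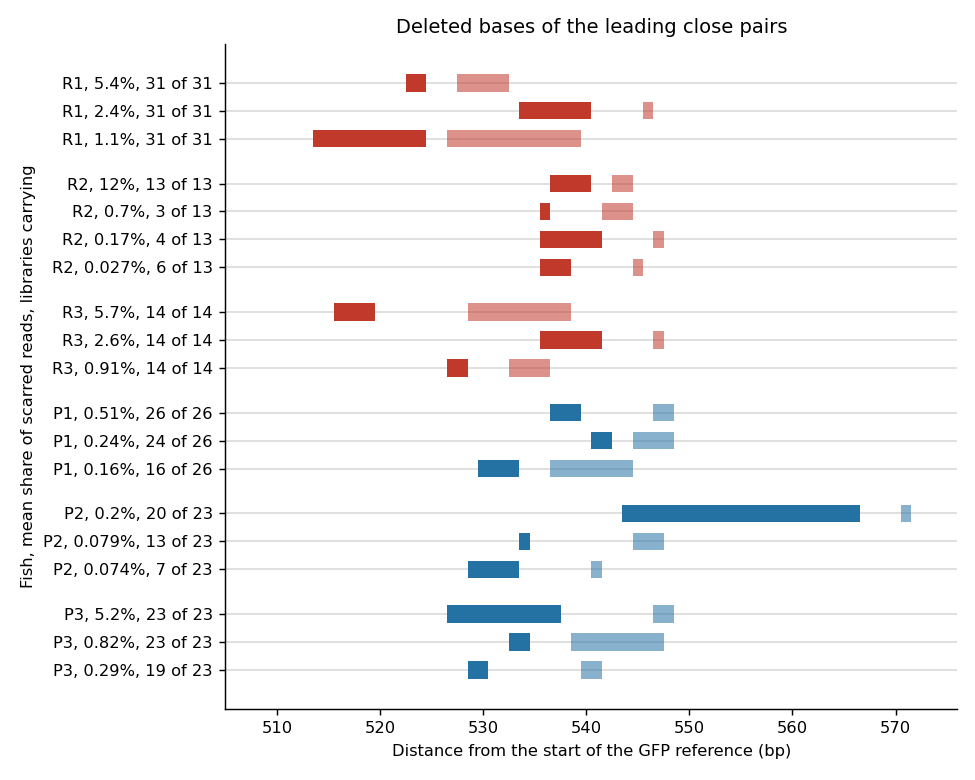
Deleted bases of the 3 leading close pairs of each fish, and of the pair of fish R2 kept in that fish only with the widest spread, by distance from the start of the GFP reference (x axis, bp). Each row is a scar, with the upstream deletion in full colour and the downstream deletion in a lighter shade (Cas9 RNA fish in red, Cas9 protein fish in blue), and the row labels give the fish, the mean share of scarred reads and the libraries that carry it. The kept blocks are 2 to 10 bp long.

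The kept block was 2 bp or longer in every close pair, and none had a block of 1 bp. The aligner decides how gaps are split, and whether this set the shortest block was not tested. Blocks of 4 bp were most frequent, with 104 pairs, followed by 5 bp with 100, 3 bp with 94 and 6 bp with 93. Blocks of 2 bp were found in 77 pairs, of 7 bp in 72, of 8 bp in 67 and of 9 bp in 53. The median block was 5 bp in 5 fish and 6 bp in fish P2.

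Deletions in close pairs were mostly short. The upstream and the downstream deletion each had a median length of 4 bp, and reached 48 and 55 bp. A deletion of 1 bp was part of 306 pairs, or 42.03%, and 24 pairs consisted of 2 of them. The downstream deletion was the longer in 346 pairs, the upstream in 308, and both were equal in 74. Within fish, the mean upstream deletion ran from 4.11 bp (fish R2) to 5.90 bp (fish P2) and the mean downstream deletion from 5.29 bp (fish P3) to 6.49 bp (fish P2). The upstream was shorter in 4 of 6 fish and by -0.37 bp on average, less than its SD between fish of 0.512 bp (two-sided exact permutation, p = 0.156, adjusted 0.179). The summed loss had a median of 9 bp and ran from 2 to 74 bp. Its mean was 10.4 ± 0.854 bp (SD, n = 3) after injection of Cas9 RNA and 11.4 ± 0.888 bp (SD, n = 3) after that of Cas9 protein (two-sided exact permutation, p = 0.30, adjusted 0.45). Against wider pairs, the mean summed loss of close pairs was lower in 4 of 6 fish and by -0.825 bp on average (two-sided exact permutation, p = 0.156, adjusted 0.179).

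The summed loss of close pairs was a multiple of 3 more often than that of single deletions in 6 of 6 fish. Of the 728 pairs, 301 or 41.3% summed to a multiple of 3, while 214 left a remainder of 1 and 213 one of 2. The most frequent sums were 6 bp with 65 pairs, 3 bp with 64 and 7 bp with 54. In 55 of the 301 pairs each deletion was a multiple of 3 by itself, and in the other 246 only their sum was. By fish the share was 39.3%, 41.3% and 42.4% for R1, R2 and R3 and 46.9%, 41.1% and 34.2% for P1, P2 and P3. Single deletions had 30.2% (R2) to 37.1% (P2). The mean difference was 6.93 percentage points, with the smallest, 0.494, in fish P3 (two-sided exact permutation, p = 0.0312, adjusted 0.0625). It was 4.82, with 4 of 6 fish higher, for scars in at least 2 libraries (two-sided exact permutation, p = 0.219, adjusted 0.292). At a limit of 0.1% of the reads of a library it was 21.9, with 6 of 6 higher (two-sided exact permutation, p = 0.0312, adjusted 0.0833). Only 8 (P2) to 47 (R1) close pairs of a fish remained at that limit. Close pairs were higher in 5 of 6 fish among scars of 1 fish and without the library of the highest share. Wider pairs had 21.5% (R3) to 46.2% (R2), and close pairs were higher in 5 of 6 fish, by 6.98 on average (two-sided exact permutation, p = 0.156, adjusted 0.179).

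By reads, the frame differed widely between fish. The percent of close pair reads with a sum that is a multiple of 3, averaged over libraries, was 87.7% in fish R2, whose leading pair lost 6 bp, and 8.67% in fish P3, whose leading pair lost 13 bp. It was 20.8% in fish R1 and 21.9% in fish R3, whose leading pairs lost 7 and 14 bp, and 52.5% in fish P1 and 43.99% in fish P2, whose leading pairs lost 5 and 24 bp. Of the 18 leading pairs, 7 lost a multiple of 3. The mean was 43.5% ± 38.4 (SD, n = 3) after injection of Cas9 RNA and 35.1% ± 23.2 (SD, n = 3) after that of Cas9 protein, far less apart than fish of the same injection (two-sided exact permutation, p = 0.80, adjusted 0.80). The direction of this difference turned without fish R2 (-13.7 percentage points), without fish P3 (-4.79), without the leading pair of each fish (-4.79) and with blocks of at most 5 bp (-14.3). With all reads of a fish pooled, the percent was 13.8%, 90.85% and 19.04% for R1, R2 and R3. It was 33.6%, 71.7% and 2.81% for P1, P2 and P3, so that P2 then lay above P1.

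**Figure D5:**
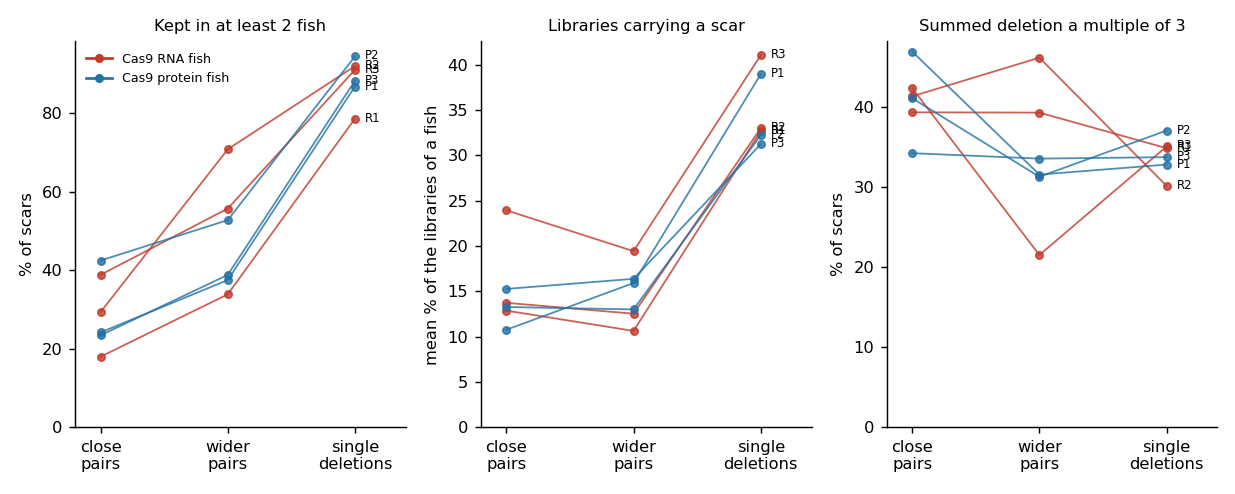
Percent of scars kept in at least 2 fish, mean percent of libraries that carry a scar and percent of scars whose summed deletion is a multiple of 3 (y axes) for close pairs, pairs of deletions more than 10 bp apart and single deletions (x axis). Each line is a fish (Cas9 RNA in red, Cas9 protein in blue), and in the panels on sharing and on libraries the single deletions lie above the close pairs in all 6 fish.

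For most close pairs, at least one of the deletions also occurred alone in the same fish. The downstream deletion was kept as a single deletion of the same fish for 56.5% (R3) to 87.7% (P1) of the close pairs, and the upstream deletion for 32.9% (P2) to 64.3% (R1). At least one of them was kept alone for 78.1% (fish P2) to 93.8% (fish P1), against 93.8% to 98.1% of the wider pairs. For 38.4% (P2) to 71.6% (P1) of the close pairs, such a single deletion had at least 10 times the reads of the pair. A deletion of exactly base 536 was the most frequent part, in 27 close pairs, and one of exactly base 535 was part of 22. The abundant single deletion of bases 542 to 547, which made up 9.49% to 19.9% of the scarred reads on average, was part of 11 close pairs. The deletion of bases 544 to 545 was part of 19, as the downstream deletion in 15 of them.

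Of the 18 leading pairs, which were chosen by their reads, 16 had more reads than either of their deletions alone. In fish R1 the leading pair had 705004 reads, while its upstream deletion alone had 15 and its downstream deletion alone 1747. In fish P3 the values were 347687 reads for the pair and 29 and 10 for its parts. In fish R2 the leading pair had 185295 reads, and its downstream deletion of bases 543 to 544 had 15777. The pair of fish R2 with base 536 and bases 542 to 544 lost was an exception, with 6781 reads against 52976 for its downstream deletion alone. The other was the pair of fish P1 with bases 530 to 533 and 537 to 544 lost, with 7722 reads against 17041.

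A single deletion of the same total length that starts or ends where the pair does shares an outer edge and the number of lost bases with it. Such a single deletion was kept for 49.3% (P2) to 78% (R1) of the close pairs, and had at least 10 times the reads of the pair for 20.5% (P2) to 52% (R1). For wider pairs it was kept for 36.8% to 63.9%. Among the leading pairs, deletions of bases 529 to 530 and 540 to 541 in fish P3 had 8162 reads, and the single deletion of 4 bp that ends at the same base had 81278. For the leading pair of fish R3 no such single deletion was counted, and for that of fish R1 the one with the same start had 1590 reads. Close pairs that had exactly one deletion in common with a leading pair of their fish numbered 8 (P2) to 25 (P1), and held at most 4.85% of the close pair reads of a fish, in fish R2. Whether any of these pairs were variants of another scar that arose in PCR, sequencing or alignment was not tested.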

How the data were processed

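GFP was amplified from genomic DNA of dissected body parts of 6 zebrafish. According to the labels and the methods of the study, the authors mapped the reads with BWA 0.7.16a to a GFP reference and deposited, for each fish, counts of reads per scar and barcode, without normalization. A scar is a CIGAR string, in which the parameters of the aligner decide how gaps are split. Barcodes were used as libraries by their number and replicas were not summed.

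Tests were run with SciPy 1.17.1 under Python 3.11.15, and figures were drawn with Matplotlib 3.10.9. Barcodes with at least 1000 reads were used, which were 130 of 372, and scars with at least 10 reads in a library were kept. Shares are percents of scarred reads, which are all reads with an insertion or deletion. Fish of the 2 injections were compared with exact permutation tests over the 20 assignments and scar types within fish by flipping signs over 64 combinations, all two-sided, with Benjamini-Hochberg adjustment over 6 and 8 comparisons. Single shares have 95% Wilson intervals. A pair and a single deletion were matched by exact position. The named pairs are the 3 with the highest mean share in each fish, those kept in all 6 fish, up to 6, of which there was 1, and the pair of each fish kept there only that was carried by most libraries. The 5-fish pair and the parts of pairs were named after their values were seen. The pairs, lists and tests were chosen with earlier results of these data known. Alternatives were other read limits, libraries, block lengths and depths, pooled reads, fish left out in turn and fish numbers as pairs. Leaving out leading pairs or the highest library, taking the median and the shares of pairs kept in 1 fish were added after seeing the data. The reading of scars, the 2 permutation tests and the count of scars without overlap were tried on simulated data, and the other measures were not.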

Additional observations from a re-analysis of the deposited data

Results flagged for a closer look

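Barcodes with fewer than 1000 reads were not used as libraries, yet their few scarred reads included close pairs of their own fish, above the 3 reads taken as the limit of a count of 0, in 4 of the 6 fish. The share was 7.34% of 109 scarred reads in fish R2 (95% Wilson interval 3.77 to 13.8%), 9.09% of 781 in fish R3 (7.27 to 11.3%), 2.38% of 630 in fish P1 (1.45 to 3.89%) and 7.51% of 373 in fish P3 (5.24 to 10.6%). In fish R1 there were 3 such reads among 83, and in fish P2 there were 0 among 445, with an upper Wilson bound of 0.856%. These barcodes have no known body structure here, and where their reads came from was not tested.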

How the results depend on the processing

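Over 15 results and 218 alternatives, 201 values kept their direction and their side of the threshold, or stayed within 1.5 times for a count, while 8 moved and 9 turned. No result passed an adjusted p of 0.05 in any of these settings, so direction and size are compared. For the injections the smallest p of the exact permutation test is 0.10, so that the side of the threshold was fixed in advance. The same held for scar types with 1 fish left out, where the smallest p of the sign flips is 0.0625. A value with a p also counted as kept when only its size changed or the fish came to overlap. The share of scarred reads in close pairs was on average higher after Cas9 RNA in every setting run, by 8.77 to 11.99 percentage points with 1 fish left out in turn, but by only 2.004 among pairs kept in 1 fish, where the fish overlapped. Among the leading pairs of the fish, that last setting kept only those of R1 and P3.

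The count of scars that did not overlap between injections was 24 of 121 tested. It was 9 of 59 at a limit of 50 reads and 4 of 26 at 0.1% of a library. It was 12 of 81 in at least 2 libraries and 4 of 24 with libraries drawn down to 10000 reads. With 1 fish left out it was 33 to 47, of 123 to 144 scars tested. There 2 fish stand against 3, so that a lack of overlap is easier to reach. The difference in sharing between close and wider pairs turned to 3.62 percentage points at 0.1% of a library and to 0.377 when drawn down to 10000 reads. The difference in libraries carrying a scar, close pairs against single deletions, turned to 1.22 among scars kept in 1 fish only, and that against wider pairs ran from -0.513 to 1.42 with 1 fish left out. The difference of in-frame reads between injections was -14.3 with blocks of at most 5 bp, -4.79 without the leading pairs and -13.7 to 19.7 with 1 fish left out. The cause was not tested.

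With the fish number as a replicate block, the difference in share was the same, 9.99, with p = 0.25 in an exact permutation test, the smallest that 3 pairs allow. The numbers only name fish, and nothing pairs them. Depth limits the rare pairs: those under 10 reads in every library held 0.0604% to 0.112% of the scarred reads of a fish.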
